A study of Bos taurus with 12 samples.

Results

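The 7 genes described here encode proteins of cow's milk, and they were read in skin explants of Holstein heifers cultured with prolactin and hydrocortisone. They were listed by their Ensembl cattle IDs as genes of milk protein, by a rule that uses no measured value, and make up 7 of the 27607 genes in the count table. They are the caseins CSN1S1 (ENSBTAG00000007695), CSN1S2 (ENSBTAG00000005005), CSN2 (ENSBTAG00000002632) and CSN3 (ENSBTAG00000039787), and the whey proteins LALBA (ENSBTAG00000005859), PAEP (ENSBTAG00000014678) and LTF (ENSBTAG00000001292). The table carries IDs alone, and the symbols were given with the choice of genes.

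The heifers were half-sisters, each by 1 of 2 sires heterozygous for slick, an allele of the prolactin receptor gene that gives a short coat. The labels gave 6 slick libraries, from heifers with the genotype Slick, and 6 non-slick libraries, from heifers with the genotype Wild type. They do not say how many copies of the allele a slick heifer carried, nor the heifers' age. Explants of both genotypes received the same medium for 36 h at 38.5 °C: ovine prolactin at 50 ng/mL, hydrocortisone at 0.4 µg/mL, and insulin-transferrin-selenium at 5 µg/mL, with antibiotics and amphotericin B. No library came from an explant without the hormones, so the levels below are levels in their presence, and a response to them was not measured.

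Prolactin binds a receptor of the cytokine family and acts through the kinase JAK2 and the transcription factor STAT5. In mammary epithelium this signal, together with glucocorticoid and insulin, switches on the milk protein genes, and the mixture is a classic one for lactation in cultured mammary tissue. Skin is not a tissue known for milk secretion, although mammary and sweat glands both derive from surface epithelium. Lactoferrin, the product of LTF, differs from the others in being made by many secretory epithelia and stored in the granules of neutrophils.

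Of the 7 genes, 2 had no count in any library, LALBA was at the limit of detection, CSN1S1 and CSN2 were low and patchy, and CSN3 and LTF were read in all 12 libraries. Total counts ran from 10903164 to 22036904 per library. Values are given as counts or as CPM (counts per 1000000), for library sizes adjusted by TMM, the trimmed mean of M values. In explants of mixed tissue, fewer cells of a type and less RNA per cell cannot be told apart. Nothing in the labels says that each library came from a heifer of its own. The p-values then measure only the spread among libraries, which may be technical. Counts of reads without molecular identifiers are not independent molecules, and the intervals below cover counting error only. The genes are compared between genotypes and not with each other in level, since no transcript lengths were used here.

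No milk protein gene passed an adjusted p of 0.05 between genotypes in the quasi-likelihood test of edgeR, in which 0% of all 14594 tested genes did. DESeq2, run on the whole table, called 0 of the 5 milk protein genes with a count and 0.0193% of all genes it tested. limma-voom, run on the 14594 filtered genes, called 0 of the 3 it reached and 0% of all. The edgeR test reached 3 of the 7 genes, CSN2, CSN3 and LTF, and the filter on low counts left out the rest. CSN2 and LTF had an unadjusted p below 0.05, both with higher levels in slick explants. That was the case for 3.03% of all tested genes, with 2.53% on the lower side. CSN2 passed the filter mainly through slick libraries, 5 of the 6 past the cut-off. In the edgeR fit with no filter the unadjusted p was 0.0343 for CSN2 and 0.0233 for LTF. In that fit 3.48% of 20768 genes were below 0.05 on the higher side. With the filter, CSN2 was fitted 4.85-fold higher in slick explants, LTF 2.37-fold higher and CSN3 1.13-fold higher. The median absolute log2 fold change of all tested genes was 0.14.

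**Figure D1:**
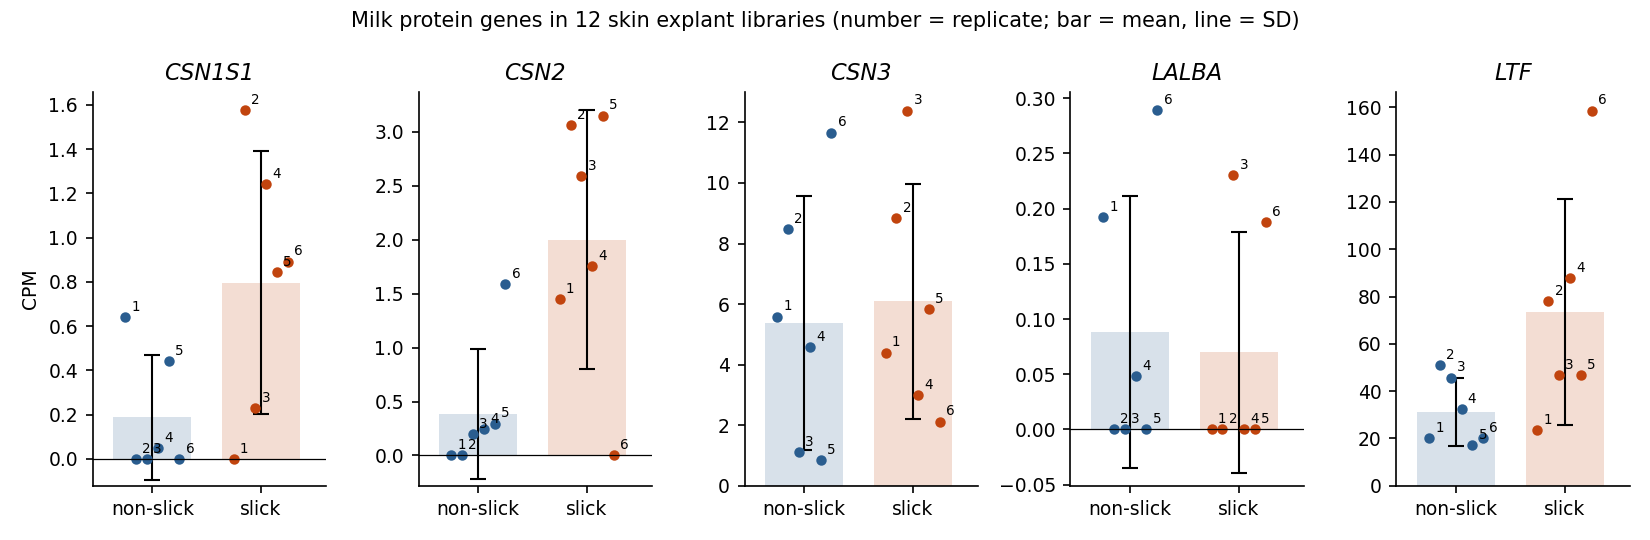
CPM of the 5 milk protein genes with at least 1 count, by genotype, in 12 libraries. Points are libraries labelled with their replicate number, bars are means and lines are SD (n = 6 each). CSN2 was at 1.45 CPM or more in slick 1 to 5 and at 0 in slick 6, and LTF ran highest in slick 6, at 159 CPM.

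The caseins are the bulk of milk protein. CSN1S1, CSN2 and CSN1S2 encode calcium-sensitive caseins, which bind calcium phosphate inside the casein micelle. CSN3 encodes kappa-casein, which sits on the surface of the micelle and keeps it in solution. In the RefSeq annotation of ARS-UCD2.0 the order is CSN1S1, CSN2, CSN1S2 and CSN3. CSN1S1 and CSN2 follow each other with 0 protein-coding genes between them, and 2 lie between CSN2 and CSN1S2 (HSTN and STATH).

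CSN2, which encodes beta-casein, had 29, 35, 45, 41 and 67 counts in slick 1 to 5, and 0 in slick 6. The non-slick libraries 1 to 6 had 0, 0, 3, 5, 6 and 33 counts. The groups thus overlapped at both ends: slick 6 was as low as any non-slick library, and non-slick 6 lay above slick 1 in CPM, at 1.59 against 1.45. The other 4 slick libraries exceeded every non-slick one. Mean levels were 2.00 ± 1.20 CPM in slick explants and 0.387 ± 0.602 CPM without the allele (SD, n = 6 each).

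The log2 fold change of CSN2 was 2.28 (SE 0.93, 95% interval 0.30 to 4.26), with an unadjusted p of 0.0271 and an adjusted p of 0.839 in edgeR. The difference of 1.61 CPM had p = 0.0346 in the two-sided exact permutation test over the 12 libraries, unadjusted. With that test, 2.66% of the 20768 genes with a count had a p below 0.05 on the higher side. CSN2 met the filter with exactly the 6 libraries it asks for, 5 slick and 1 non-slick, so that its place among the tested genes itself rested on slick libraries. Slick 6 held 19939230 counts in all, where 0 counts, with 3 taken as the limit, allow up to 0.150 CPM of the plain total. The upper limit of the 95% exact binomial interval there was 0.185 CPM. On the same scale the lower 95% limits in slick 1 to 5 were 0.950 CPM or more (exact binomial). Leaving out non-slick 6 moved the log2 fold change to 3.63 (edgeR adjusted p = 0.602), and over the 23 alternatives the unadjusted p of CSN2 ran from 0.00155 to 0.0697. It was above 0.05 in 7 of them: limma-voom (0.0672), the replicate block (0.0532), without slick 5 (0.0536), without non-slick 3 (0.0536), 4 (0.0522) or 5 (0.0521), and without slick 2 and slick 4 together (0.0697). The 23 alternatives gave adjusted p-values between 0.602 and 0.9997.

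CSN1S1, which encodes an alpha casein, had fewer counts. Slick 1 to 6 had 0, 18, 4, 29, 18 and 19 counts, and non-slick 1 to 6 had 10, 0, 0, 1, 9 and 0. Slick 2, 4, 5 and 6 exceeded every non-slick library in CPM, while slick 1 shared the 0 of 3 non-slick libraries. The slick mean was 0.797 ± 0.595 CPM and the non-slick mean 0.189 ± 0.282 CPM (SD, n = 6 each), and the difference had an unadjusted p of 0.0563 (two-sided exact permutation test).

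CSN1S1 reached the cut-off of the filter, 0.510 CPM, in 5 libraries, of which 4 were slick, and 6 were needed. In the edgeR fit with no filter, over 20768 genes, it had a log2 fold change of 2.03 with an SE of 1.05 (95% interval -0.15 to 4.21) and an adjusted p of 0.689. Without slick 1 the permutation p was 0.0130, and without slick 2 and slick 4 together it was 0.243. The difference in CPM moved with them, from 0.609 to 0.768 and to 0.303.

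The neighbours CSN1S1 and CSN2 were not always detected in the same libraries. Both had counts in 6 libraries, CSN2 alone in 3, CSN1S1 alone in 2, and neither in 1. Of the counts of these 2 genes, CSN2 took 29 of 29 in slick 1 (lower limit of the 95% exact binomial interval 88.1%) and 33 of 33 in non-slick 6 (lower limit 89.4%). In slick 6 it took 0 of 19, and in slick 4 it took 41 of 70 (58.6%, 46.2% to 70.2%). These libraries were picked after their values were seen, to show the range.

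CSN1S2, which encodes the other alpha casein, had 0 counts in all 12 libraries. With the same limit of 3 counts, 0 counts within a library allow a level of up to 0.136 to 0.275 CPM of the plain total. For the 221342181 counts of the 12 libraries together the limit is 0.0136 CPM, but only if the level was the same in every library. That was not tested, and both limits cover counting error only. In the whole table, 6839 genes (24.8%) likewise had no count in any library.

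CSN3 had the most counts of the caseins and was found in every explant of both genotypes. Slick libraries ran from 45 to 215 counts with a median of 94.5, and non-slick libraries from 17 to 242 with a median of 91. In CPM that was 2.11, 5.11 and 12.4 (lowest, median and highest) in slick explants, against 0.838, 5.08 and 11.7 in the others. The groups overlapped over most of their range. The means, 6.09 ± 3.89 and 5.37 ± 4.21 CPM (SD, n = 6 each), differed by 0.721 CPM, less than the SD of either group (two-sided exact permutation p = 0.753).

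The log2 fold change of CSN3 was 0.17 (SE 0.60, 95% interval -1.14 to 1.48), with an adjusted p of 0.971 in edgeR. The interval runs from 0.455-fold to 2.79-fold, which does not exclude a difference of 2-fold either way. The direction turned without slick 3, to -0.17, without non-slick 3, to -0.03, and without non-slick 5, to -0.06. Slick 3 held the highest slick value, and non-slick 3 and non-slick 5 the 2 lowest of all libraries.

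**Figure D2:**
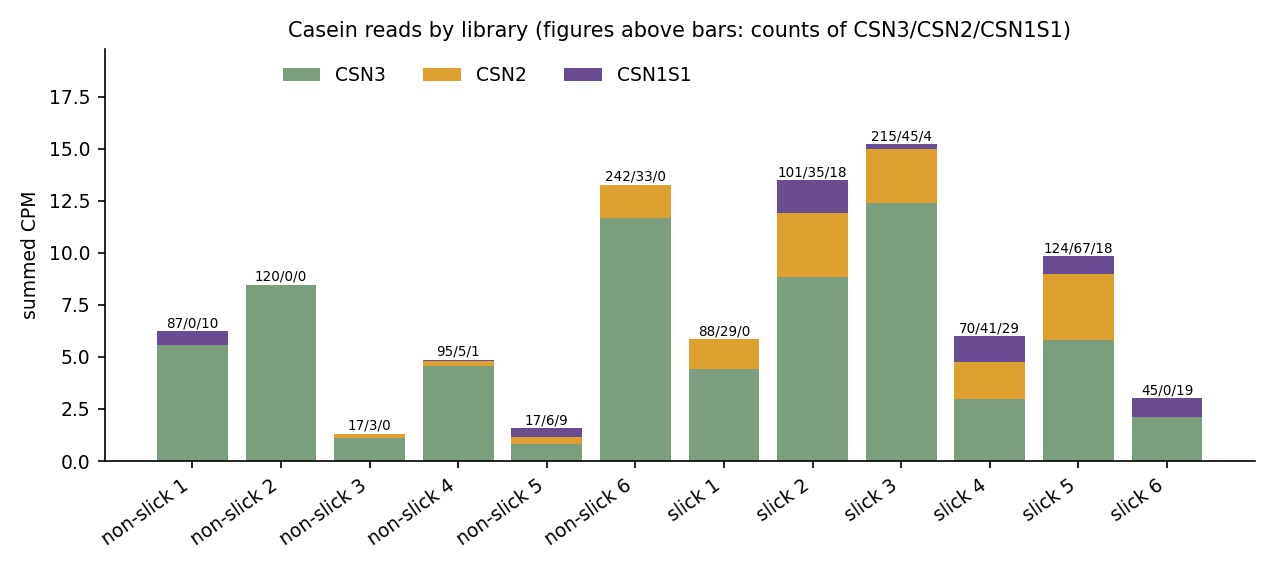
Summed CPM of CSN3, CSN2 and CSN1S1 in each library, with the read counts of the 3 genes above each bar. CSN3 formed the larger part of the casein reads in 11 of 12 bars and exactly 50.0% in slick 4, and CSN2 and CSN1S1 were absent together only in non-slick 2.

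Across all caseins, the summed level averaged 8.89 ± 4.78 CPM in slick libraries and 5.95 ± 4.51 CPM in non-slick ones (SD, n = 6 each). This difference was within the spread of the libraries (two-sided exact permutation p = 0.294). CSN3 gave 50.0% to 81.4% of the casein counts in slick libraries, with a median of 67.9%. In non-slick libraries it gave 53.1% to 94.1% in 5 of 6 and all 120 counts in non-slick 2, with a median of 88.8%. These are shares of reads, not of molecules, and the 2 groups overlap. Non-slick 5, the lowest of its group in this share, had 32 casein counts in all and an interval of 34.7% to 70.9%.

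LALBA encodes alpha-lactalbumin, the subunit of lactose synthase that makes lactose synthesis possible. It had 4 counts each in slick 3 and slick 6, and 3, 1 and 6 counts in non-slick 1, 4 and 6. The other 7 libraries had none, and no library reached 10 counts. Libraries of both genotypes were thus near or below the 3 counts that a count of 0 is taken to allow, and no fold change is given. Slick libraries averaged 0.0697 ± 0.109 CPM and non-slick libraries 0.0883 ± 0.123 CPM (SD, n = 6 each; two-sided exact permutation p = 0.697). PAEP, which encodes beta-lactoglobulin, the main whey protein of cow's milk, had 0 counts in all 12 libraries, with the same limits as CSN1S2.

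LTF encodes lactoferrin, an iron-binding protein of milk and other secretions with antimicrobial activity. It had 467, 892, 811, 2051, 998 and 3378 counts in slick 1 to 6, and 315, 722, 705, 668, 350 and 418 counts in non-slick 1 to 6. Slick libraries ran from 23.3 to 159 CPM with a median of 62.5, and non-slick libraries from 17.2 to 51.0 CPM with a median of 26.2. Slick 2, 4 and 6 exceeded every non-slick library, and non-slick 1, 5 and 6 were lower than every slick one. The remaining 6 libraries overlapped.

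LTF averaged 73.6 ± 47.8 CPM in slick libraries and 31.1 ± 14.4 CPM in non-slick ones (SD, n = 6 each). The log2 fold change was 1.25 (SE 0.45, 95% interval 0.26 to 2.24), with an unadjusted p of 0.0180 and an adjusted p of 0.839 in edgeR. The difference of 42.5 CPM had an unadjusted p of 0.0390 (two-sided exact permutation test). Slick 6 alone held 3378 of the 8597 slick counts. Without it the log2 fold change was 0.87 and the difference 25.5 CPM, with an unadjusted edgeR p of 0.0457 and an exact permutation p of 0.0779. The permutation p was also above 0.05 when slick 2 or slick 4, or any non-slick library other than non-slick 2, was left out, with 0.0931 at most. Leaving out a library also lowers the number of splits, so this p can rise without a smaller difference. Over the 23 alternative fits the unadjusted p of LTF was below 0.05 in 22, and the adjusted p ran from 0.601 to 0.9997.

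**Figure D3:**
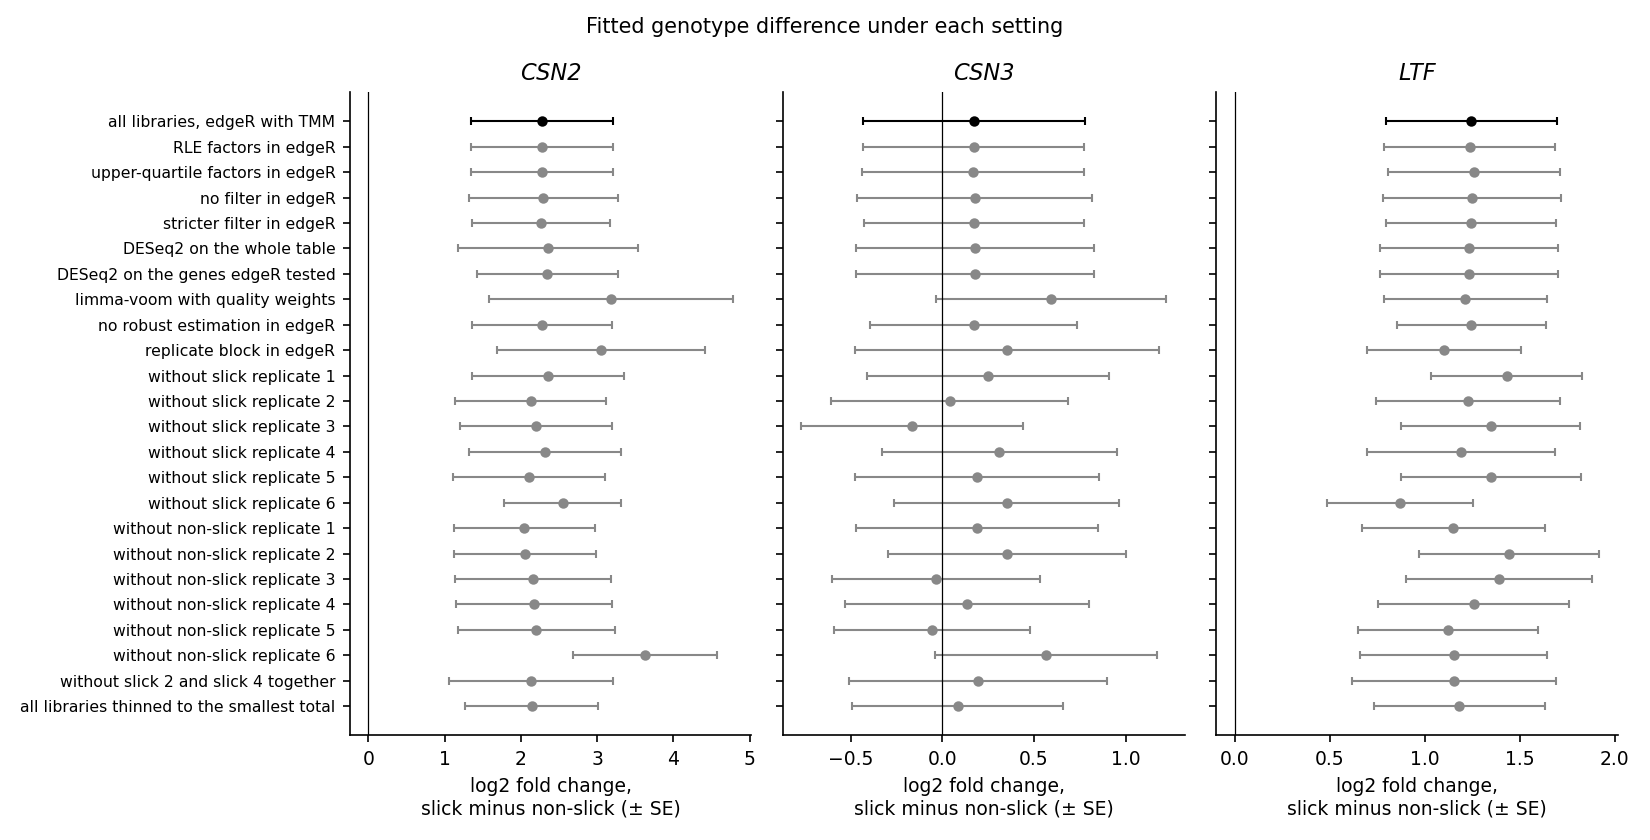
Fitted log2 fold change, slick minus non-slick, of CSN2, CSN3 and LTF (horizontal axes, with SE) under the fit with all libraries, in black, and 23 alternatives, in grey. CSN2 and LTF stay to the right of 0 in every row, while CSN3 lies on both sides. The rows reuse the same libraries and are not separate support.

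The high values of LTF fell in slick libraries toward 1 end of the leading axis of variation over all genes. On the first principal component of log2 CPM, which held 19.9% of the variance, the 3 slick libraries with the most LTF had the highest slick scores: 62.96 in slick 4, 29.29 in slick 6 and 16.76 in slick 2. Among the non-slick libraries the order ran the other way. Non-slick 6, with the highest score of 22.84, had 20.1 CPM of LTF, and non-slick 2, with the lowest of -31.99, had 51.0 CPM. Spearman's rho of LTF with this score was 0.886 over the 6 slick and -0.829 over the 6 non-slick libraries, as a description. Over all 12 libraries rho was 0.315 and Pearson's r 0.498, and r was -0.017 without slick 4 and slick 6. Without slick 2, the shallowest library, and slick 4 together, the log2 fold change of LTF was 1.15 and that of CSN2 2.14 (unadjusted edgeR p of 0.0605 and 0.0697, exact permutation p of 0.105 and 0.0762). That fit kept slick 6 and took out 2 of the 3 slick libraries with the most LTF, so it is no control for the axis. The part of this axis in the levels of LTF was not tested.

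**Figure D4:**
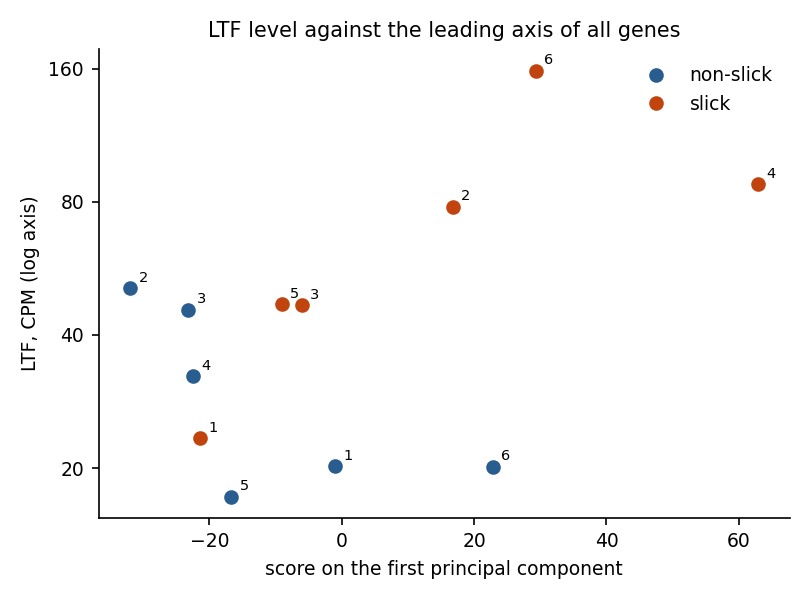
LTF in CPM, on a log axis, against the score of each library on the first principal component of all tested genes, with replicate numbers beside the points. The slick points run upward to slick 6 and slick 4, while the non-slick points run downward from non-slick 2 to non-slick 6, with non-slick 5 the lowest.

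The genes that could be tested varied more between libraries of a genotype than most. The biological coefficient of variation, the spread within groups that edgeR estimates beyond counting noise, was 111% for CSN2, 70.4% for CSN3 and 52.1% for LTF. Its median over the tested genes was 22.6%. A higher dispersion was found in 0.219% of tested genes for CSN2, in 3.32% for CSN3 and in 10.3% for LTF. The SE of their log2 fold changes, 0.93, 0.60 and 0.45, lay above the median SE of 0.18 over all tested genes. The tested genes cover all levels, and no comparison with genes of a similar level was made. The part of low counts in the spread of CSN2 and CSN3 was not tested.

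The levels of these 3 genes were set against each other across the 12 libraries. On log2 CPM, Pearson's r was 0.388 between CSN2 and CSN3 (Spearman's rho 0.448), and 0.409 without slick 6 and non-slick 1, which with non-slick 2 lay farthest from the median of CSN2. Within genotypes r was 0.748 over 6 slick and 0.062 over 6 non-slick libraries (rho 0.714 and -0.029). For CSN2 and LTF r was -0.003 (rho 0.116), and 0.219 without the same 2 libraries. Within genotypes it was -0.617 in slick and -0.413 in non-slick libraries, where rho was -0.257 and -0.600. For CSN3 and LTF r was -0.022 (rho 0.056), and -0.472 without non-slick 3 and non-slick 5, the farthest from the median of CSN3. Within genotypes it was -0.469 and 0.053 (rho -0.600 and 0.200). The explant with the most LTF, slick 6, had 0 counts of CSN2 and the fewest CSN3 counts of the slick libraries. These values are descriptions over libraries of unequal depth.

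For each of the 3, the closest of all other tested genes were picked. The highest rho among so many genes is almost bound to exceed those among the 3, so no contrast is drawn. For LTF, the tested genes with the most similar order over the 12 libraries were ENSBTAG00000016168 (rho 0.916) and ENSBTAG00000047299 (rho 0.902), and 21 genes (0.144% of those compared) had a rho of at least 0.8. Both IDs had smaller log2 fold changes between genotypes than LTF, at 0.15 and 0.26 (adjusted p = 0.839 each in edgeR). For CSN2 the closest pair both had a rho of 0.865, and 13 genes (0.0891%) reached 0.8. For CSN3 the closest pair had 0.874 and 0.846, and 6 genes (0.0411%) reached 0.8. The share that chance alone would give over 12 libraries was not computed. The files do not pair the IDs with names, and each pair was picked as the highest among the tested genes.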

How the data were processed

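RNA of 6 slick and 6 non-slick explant libraries was sequenced as polyA RNA in read pairs, per the labels' protocols. The authors deposited raw counts per Ensembl gene. Per the submitters' processing notes, the tools included HTSeq, STAR, R 4.3.1 and FastQC, with no roles stated. The build and strand setting of the counting are not given in the sources used here, and counts of overlapping genes are uncertain. Samples were grouped by the labels.

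Genes passing filterByExpr (14594, with at least 99.91% of each library's counts) were fitted with TMM factors and the robust quasi-likelihood test of edgeR 4.0.16 in R 4.3.3, genotype as sole term, adjusted by Benjamini-Hochberg over all of them. SE is the log2 fold change over the root of F. Single genes were compared with exact permutation tests (Python 3.11.15), unadjusted. Intervals are 95% exact binomial, and 0 counts allow 3. Alternatives used DESeq2 1.42.0, limma 3.58.1, other factors and filters, a replicate block, thinning and left-out libraries. No 2 libraries agreed within sampling noise (chi-square per degree of freedom at least 16.4). Likeness between genes and principal components were computed on log2 CPM (prior count 2).

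The rule for the members uses no measured value, but the members, lists and tests were chosen with earlier results of these data known. All 7 genes are reported; for each tested one, the 2 genes most alike by Spearman's rho were selected, and IDs are printed for LTF only. The reference, RefSeq genes of ARS-UCD2.0, had an Ensembl ID for 0 of 37063 genes, so signalling, glucocorticoid and milk gene lists, and markers of skin, gland and neutrophils, were not analysed here. Protein and promoter sequences and levels per coding length were not used here.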

Additional observations from a re-analysis of the deposited data

Results flagged for a closer look

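CSN2 in non-slick 6, at 1.59 CPM, lay far above the rest of its genotype: the distance to the next library made up 0.814 of the whole range. Of 10 groups of values examined, 1 stood out in this way, and chance marks about 1 in 20. The same library held the highest non-slick counts of CSN3 (242) and LALBA (6), but none of CSN1S1.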

How the results depend on the processing

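In each of the 23 alternatives, 0 milk protein genes passed an adjusted p of 0.05. CSN2 and LTF kept their direction in all 23, with log2 fold changes of 2.05 to 3.63 and 0.87 to 1.45, and an unadjusted p of 0.00155 to 0.0697 and of 0.00441 to 0.0605. These alternatives reuse the same libraries or parts of them, so a kept direction is no separate support for either gene. CSN1S1 kept its direction in the 8 that tested it besides the fit with no filter. These were DESeq2 on the whole table and fits that left out a library below the filter cut-off. Fits without any of the 5 libraries past the cut-off, 4 of them slick, did not test it. The filter thus chose fits that kept its high slick libraries, and the kept direction is no separate support. The log2 fold change of CSN3 kept its direction in 20, was 0.57 without non-slick 6 and at most 0.59 (limma-voom), and turned without slick 3 (-0.17), non-slick 3 (-0.03) and non-slick 5 (-0.06).

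With 1 library left out, the difference in CPM ran from 0.453 to 0.768 for CSN1S1, 1.38 to 2.01 for CSN2, -0.538 to 1.98 for CSN3, -0.0507 to 0.0216 for LALBA and 25.5 to 52.5 for LTF. The exact permutation p ran from 0.0130 to 0.113 for CSN1S1, below 0.05 in 3 of 12 (without slick 1, slick 3 or non-slick 1), and from 0.00649 to 0.0476 for CSN2. For LTF it ran from 0.00866 to 0.0931, below 0.05 in 4 of 12. It was above 0.05 in the other 8, without slick 2, 4 or 6 or any non-slick library but non-slick 2. Fewer libraries give fewer splits, so this p can rise without a smaller difference. Without non-slick 3 the LTF difference was 45.4 CPM (exact permutation p = 0.0628) and without non-slick 4 it was 42.7 (p = 0.0801), against 42.5 with all libraries. Without slick 2 and slick 4 together the difference was 1.41 for CSN2 (exact permutation p = 0.0762), 37.8 for LTF (p = 0.105) and 0.0163 for LALBA, whose direction turned. Plain totals or log2(CPM + 1) changed no call. At least 10 counts were found for CSN1S1 in 5 libraries, against 8 with any, for CSN2 in 6, against 9, and for LALBA in 0, against 5. The cause was not tested.

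The labels give no pairing by replicate number. The deviations of libraries with the same number had correlations of -0.0914 to 0.255. Of 12 libraries, 4 were most like their own number, namely those of replicates 5 and 6. No chance level was computed, so this check cannot decide whether some numbers are paired. The fit with a replicate block gave no call, and its log2 fold changes were 3.05 for CSN2, 0.35 for CSN3 and 1.10 for LTF.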
